A study of Homo sapiens with 4 samples.

Results

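Genes of the NF-kB pathway and of the cytokines and chemokines it is known to control were followed in U87MG cells, an established human glioblastoma line, with and without chaetocin. The list holds 34 genes, chosen by symbol for their place in the pathway. An identifier in the count files could be paired with 33 of them, out of 57905 genes in each file, and *IKBKG*, the regulatory subunit of the IKK complex, was not analysed here. Of the 33 genes, 32 passed the filter on low counts and were tested, and *TNF* did not.

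Chaetocin is a fungal metabolite known as an unspecific inhibitor of histone methyltransferases, which the study examined as an agent that sensitizes glioblastoma cells to the death ligand TRAIL. Cells of genotype wild type, at passages 8 to 10, were either left untreated (control, 2 samples) or given 50 nM chaetocin dissolved in DMSO for 24 h (2 samples). The labels name no DMSO for the controls, so that solvent and chaetocin cannot be told apart. Nothing in the labels says that the 2 samples of a group came from separate cultures, so the p-values measure the spread between these samples, which may be technical. Polyadenylated RNA was sequenced, and reads were counted per gene. The question addressed was which genes of this pathway differed between treated and untreated cells.

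NF-kB is a family of dimeric transcription factors built from the subunits encoded by *RELA*, *RELB*, *REL*, *NFKB1* and *NFKB2*. In resting cells the dimers are held back by inhibitor proteins such as the product of *NFKBIA*, and signals from receptors for interleukin 1 or tumour necrosis factor activate the IKK kinases, which mark the inhibitors for destruction. The freed dimers bind kappaB sites and switch on cytokines, chemokines and their own inhibitors, and glioblastoma cells in culture are known to secrete interleukin 6 and interleukin 8 through this pathway.

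The samples held between 21241984 and 32590479 counts, and 3 reads corresponded to between 0.0844 and 0.138 CPM (the read count relative to the library size in units of megareads, scaled with TMM factors). Because PCR reads are not independent molecules, this limit covers counting error only. Among 8 markers of glioblastoma lines, *VIM*, *CD44* and *FN1* were abundant, *GFAP* and *OLIG2* lay between 0.459 and 2.58 CPM, *SOX2* had at most 5 reads, and *CDKN2A*, a gene known to be deleted in this line, had 0 reads in every sample. In each of the 6 that were tested, the 2 chaetocin values lay below the 2 control values, as they did for 26% of all tested genes. At an adjusted p under 0.05, 0 of the 6 were called, beside 1.85% of all tested genes (edgeR). At an unadjusted p under 0.05, 4 of the 6 were lower, beside 9.43% of all tested genes. The median log2 fold change of the 6 was -0.90, against 0.0079 over all tested genes. Among 16 leukocyte markers, *AIF1*, *CD3E*, *CD8A*, *MS4A1* and *TYROBP* had 0 reads in every sample, while *CSF1R* and *CD74* were expressed in all samples. The other 14 markers summed to 1.19 and 1.60 CPM in the control samples and to 5.88 and 6.28 CPM in the chaetocin samples. Of the 16, tested or not, 6 lay above both controls in both chaetocin samples. Among the 7 that were tested, 5 lay above in this way and 0 below, beside 26.8% and 26% of all tested genes. *PTPRC* and *ITGAM* are among these 5. *FCER1G* had 15 and 26 reads in control and 67 and 96 reads with chaetocin (adjusted p = 0.0466, edgeR's quasi-likelihood test). *PTPRC* had 0 and 1 reads in control and 15 and 27 with chaetocin, and *ITGAM* had 0 and 1 and then 24 and 29. These 2 genes passed the filter on low counts through the chaetocin samples alone, so no test is given for them. Summed over all 16 markers, *CSF1R* and *CD74* included, the level was 249.6 and 177 CPM in control and 211 and 119 CPM with chaetocin. The part of other cells in the results below was not tested. In bulk RNA, fewer cells of a type and less RNA per cell cannot be told apart.

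The promoter sequences are shown first, because NF-kB is known to act on several of these genes through kappaB sites near their start. Windows from 250 bases before to 50 bases after 1 annotated start per gene were taken from RefSeq on GRCh38.p14. It held one for 27 of the 34 genes (none for *RELB*, *IKBKB*, *NFKBIE*, *LIF*, *CCL2*, *CSF1* and *CSF3*). For some genes, among them *TNIP1*, *SOD2*, *IL1R1* and *CCL20*, the window lay inside the span of the gene in GENCODE v29. Other starts of these genes were not searched. The sequence GGANTTTCC, a form of the kappaB site, was searched on both strands. It occurred in 11 of the 27 windows (40.7%), against 1.64% of 35116 promoter windows of the same length. In the other pathway genes described further below it occurred in 7 of 89 windows (7.87%). The list was chosen by knowledge of the pathway, so the higher share describes that choice. The 10-letter kappaB consensus, which overlaps GGANTTTCC at most of these places, occurred in 10 of the 27 windows (37%), against 5.91% of all windows. In the other pathway genes it occurred in 17 of 89 windows (19.1%). The windows with GGANTTTCC were those of *NFKB1*, *REL*, *NFKBIA*, *NFKBIZ*, *TNFAIP3*, *IL6*, *CXCL8*, *CXCL1*, *CXCL2*, *CXCL3* and *ICAM1*, so they include 2 subunits, 3 inhibitors and 5 secreted factors.

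The stretches below show the match and 15 bases on each side for the chemokine and cytokine genes and, nearest the start, for *NFKBIA*, each written 5′ to 3′ on the strand of the gene, with the match in capitals. In *NFKBIA* the match reads on the opposite strand, so the capitals show its reverse complement.
*CXCL8*, chr4:73740463-73740501, plus strand: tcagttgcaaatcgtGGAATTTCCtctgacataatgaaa
*CXCL1*, chr4:73869300-73869338, plus strand: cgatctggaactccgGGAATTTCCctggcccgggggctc
*CXCL2*, chr4:74099249-74099287, minus strand: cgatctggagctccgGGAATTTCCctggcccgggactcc
*CXCL3*, chr4:74038744-74038782, minus strand: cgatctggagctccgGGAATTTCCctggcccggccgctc
*IL6*, chr7:22727113-22727151, plus strand: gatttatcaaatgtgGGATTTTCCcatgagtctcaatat
*NFKBIA*, chr14:35404807-35404845, minus strand: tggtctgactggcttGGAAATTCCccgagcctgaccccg

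The match began 91 bases before the start in *CXCL8*, 78 bases before it in *CXCL1* and *CXCL3*, 77 bases before it in *CXCL2* and 72 bases before it in *IL6*. Over the 39 bases shown, *CXCL1* and *CXCL3* were identical at 36 positions, *CXCL2* matched each of them at 34, and *CXCL8* matched *CXCL1* at 19. A match of letters is a description of the sequence and does not show that NF-kB was bound there in these cells.

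Levels of the genes in untreated cells were compared per length, as RPKM (CPM per kilobase of exon, with exon lengths from GENCODE v29). *CSF3*, which encodes the granulocyte colony-stimulating factor G-CSF, stood highest, with 74.9 and 61.6 RPKM in the control samples, its mean lying above that of 96.5% of the tested genes. It was followed by *IL1B* (47.2 and 29.9 RPKM), *IL6ST* (38.4 and 35.2 RPKM) and *CSF1* (27.8 and 42.8 RPKM), whose control samples overlapped. *CSF3* lay above *IL1B* in both control samples, whereas the order of *IL1B*, *IL6ST* and *CSF1* was not larger than the spread between samples. A middle group of *SOD2*, *NFKBIA*, *RELA*, *TNIP1*, *LIF*, *CXCL8* and *NFKB2* had means between 26.1 and 12.6 RPKM. This order depends on the exon lengths used. *SOD2* had 406 and 455 CPM in control against 166 and 137 CPM for *CSF3*, but 16493 exon bases against 2220. Of the 50-base stretches of the *SOD2* transcripts, 9.15% also occur in other genes, mainly in a second gene of that name that overlaps it on the same strand.

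Within the factor itself, *RELA* was the most abundant subunit (22.5 and 20.6 RPKM), followed by *NFKB2* (13.9 and 11.3) and *NFKB1* (8.27 and 8.77), and *RELB* (4.43 and 2.73) and *REL* (0.473 and 0.642) were lower, with no overlap between neighbours in this order. The level of *REL* is uncertain, because 43.1% of the 50-base stretches of its transcripts also occur in other genes, mainly in *AC010733.2*, which overlaps it on the same strand. At the low end were *CCL20*, *CXCL12* and *TNF*, with mean RPKM of 0.295, 0.169 and 0.131 in the control samples. For *TNF*, 9 and 2 reads were counted in control and 14 and 8 with chaetocin.

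**Figure D1:**
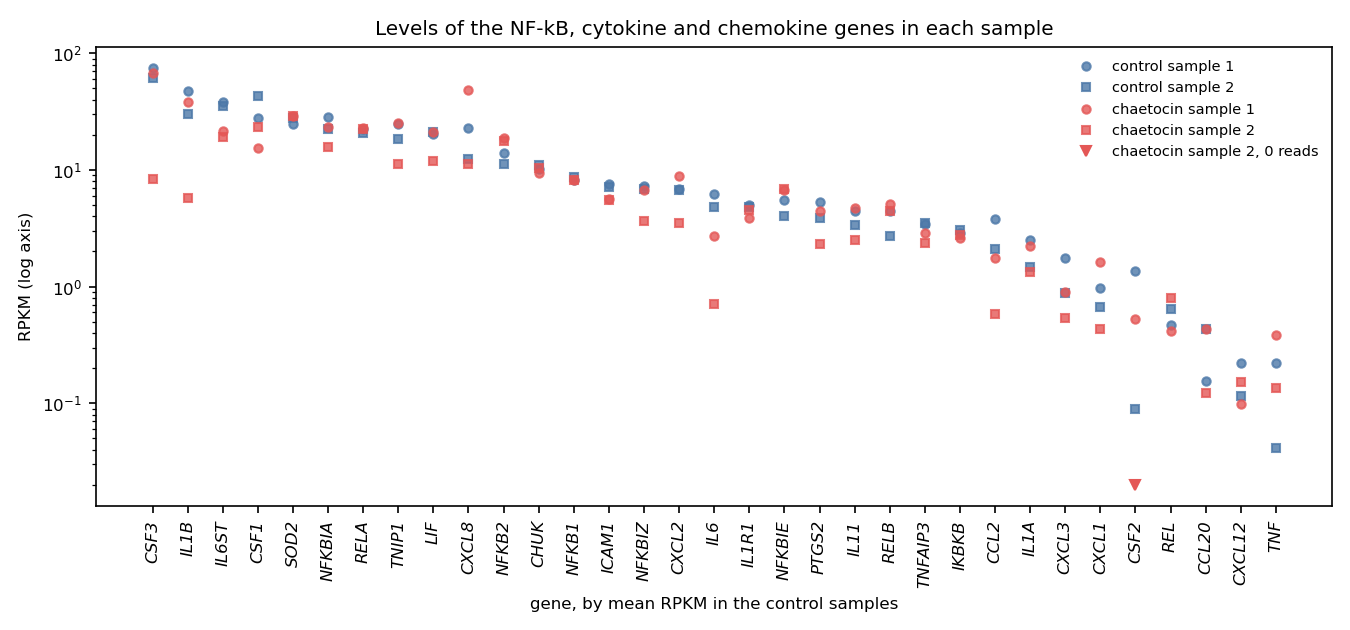
Level of each of the 33 genes in each sample, in RPKM on a log axis, ordered by the mean of the 2 control samples. Blue points are control and red points chaetocin samples, circles sample 1 and squares sample 2, and the triangle marks 0 reads of CSF2 in chaetocin sample 2. The levels of CSF3 and IL1B in chaetocin sample 2, at 8.29 and 5.71 RPKM, lie far below the other 3 samples.

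Of the 32 genes tested, *IL6ST* was lower with chaetocin at an adjusted p under 0.05 and 0 were higher (edgeR's quasi-likelihood test with Benjamini-Hochberg adjustment over 16416 genes). Among all tested genes 0.743% were called lower and 1.11% higher (1.85% in all), so 1 called gene among 32 is close to the background. At an unadjusted p under 0.05, 2 members were higher (*NFKB2* and *NFKBIE*) and 5 were lower (*IL6ST*, *IL6*, *CCL2*, *CSF1* and *ICAM1*), where 10.9% and 9.43% of all genes had such values. DESeq2 called 2 members lower (*IL6ST* and *CSF1*) and 0 higher, beside 2.81% and 2.72% of all genes.

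Other settings changed which members passed. RLE factors (1.08% of all genes higher and 0.737% lower), upper-quartile factors (1.5% and 0.536%) and a filter of at least 10 counts in every sample (0.787% and 0.552%) again called *IL6ST* and no other member. Without a filter, *IL6*, *CCL2* and *CSF1* were called lower beside *IL6ST*, with 2.48% of all genes higher and 2.39% lower. With the sample number as a block, the same 4 genes were lower and *NFKB2* was higher, with 6.31% and 6.41% of all genes called. Without control sample 1, *IL6* and *CSF1* were lower and *CXCL8* was higher (1.2% higher and 0.538% lower over all genes), and without control sample 2 *CCL2* was lower (1.24% and 0.868%).

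The largest step in the members called came from leaving out chaetocin sample 1. Without chaetocin sample 2, *IL6* and *IL6ST* were lower and *NFKB2* was higher, where 4.23% of all genes were higher and 5.59% lower. Without chaetocin sample 1, *NFKB2* was higher and 11 members were lower (*NFKBIA*, *NFKBIZ*, *TNIP1*, *IL1B*, *IL6*, *LIF*, *IL6ST*, *CXCL2*, *CCL2*, *CSF3* and *PTGS2*), where 7.55% of all genes were higher and 9.48% lower. In such fits the lone sample is assumed to vary like the other group.

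The fold changes of 24 of the 32 genes were below 0 and those of 8 were above it. The median log2 fold change was -0.23 over the 32 genes and 0.0079 over all genes tested. This median depended on which chaetocin sample was used. It was -0.054 without chaetocin sample 2 and -0.63 without chaetocin sample 1. Both chaetocin samples lay above both controls for 5 of the genes and below both for 10, and 17 overlapped. Among all tested genes, 26.8% lay above and 26% lay below in this way.

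**Figure D2:**
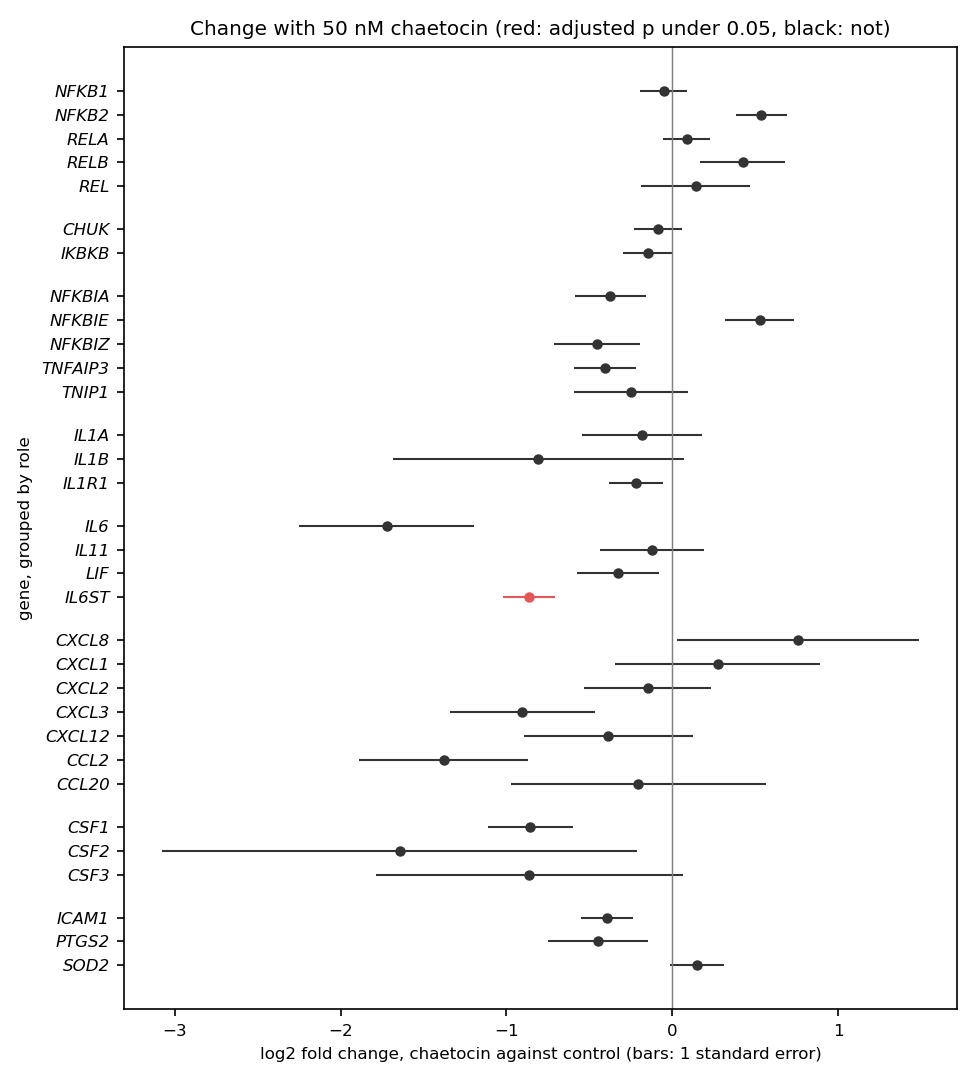
Log2 fold change of each tested gene, chaetocin against control, with bars of 1 SE (edgeR, 2 samples per group), grouped by role from the NF-kB subunits at the top to adhesion and enzyme targets at the bottom. IL6ST, in red at -0.86, had an adjusted p under 0.05, and the widest bars are those of CSF2, CSF3 and IL1B.

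The subunits of NF-kB did not pass the test. *NFKB2*, which encodes the p100 precursor of the non-canonical pathway, had 62.1 and 50.7 CPM in the control samples and 84.0 and 79.8 CPM with chaetocin. Both chaetocin samples lay above both controls, and the log2 fold change was 0.54 (standard error, SE, 0.16, adjusted p = 0.112). Its partner *RELB* had 13.4 and 8.28 CPM in the control samples and 15.6 and 13.5 CPM with chaetocin, where the lower chaetocin sample exceeded the higher control by a small margin (log2 fold change 0.42, SE 0.25, adjusted p = 0.391). The log2 fold change of *RELB* was 0.80 without control sample 1 and 0.10 without control sample 2. For *RELA* the values were 123 and 112 CPM in control and 126 and 124 CPM with chaetocin, a log2 fold change of 0.087 with an SE of 0.14. *NFKB1* had 51.7 and 54.9 CPM in control and 51.5 and 51.3 CPM with chaetocin, while *REL* had 6.23 and 8.46 CPM in control and 5.47 and 10.6 CPM with chaetocin. The chaetocin samples of *REL* lay on either side of the controls, and those of *NFKB1* just below them. The log2 fold changes were 0.14 for *REL* and -0.051 for *NFKB1*.

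The catalytic kinases of the IKK complex differed little between groups. *CHUK*, which encodes IKK-alpha, had 70.1 and 76.6 CPM in control and 65.4 and 72.6 CPM with chaetocin. *IKBKB*, which encodes IKK-beta, had 32.4 and 34.5 CPM in control and 29.3 and 31.0 CPM with chaetocin. Their log2 fold changes were -0.088 and -0.15, each with an SE of 0.15.

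None of the 5 genes for inhibitors passed the test, and their fold changes did not share a direction. *NFKBIE*, which encodes IkB-epsilon, had 14.1 and 10.3 CPM in control and 17.5 and 17.7 CPM with chaetocin (log2 fold change 0.53, SE 0.21, adjusted p = 0.206). Its log2 fold change was 0.76 without control sample 1 and 0.31 without control sample 2. The other 4 had values below 0. *TNFAIP3*, which encodes the ubiquitin-editing enzyme A20, had 17.4 and 17.9 CPM in control and 14.6 and 12.1 CPM with chaetocin (log2 fold change -0.41, SE 0.19, adjusted p = 0.268).

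*NFKBIA*, which encodes IkB-alpha and is itself a rapid NF-kB target, had 67.2 and 53.5 CPM in control and 55.8 and 37.4 CPM with chaetocin, so the groups overlapped. For *NFKBIZ*, a nuclear IkB protein that aids the transcription of *IL6*, chaetocin sample 1 (39.6 CPM) was next to the control samples (43.3 and 40.1 CPM) and chaetocin sample 2 was lower (21.6 CPM). *TNIP1*, a binding partner of A20, showed the same arrangement, with 143 and 106 CPM in control, 146 CPM in chaetocin sample 1 and 64.7 CPM in chaetocin sample 2.

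Of the interleukin 6 family, the shared receptor chain was the member that passed the test. *IL6ST* (ENSG00000134352) encodes gp130, the chain through which the receptors of interleukin 6, interleukin 11, LIF and oncostatin M signal. It had 357 and 327 CPM in control and 199 and 176 CPM with chaetocin, with a gap between the groups larger than the spread within them. The level with chaetocin was 0.549 times that in control, which is -0.86 on the log2 scale (SE 0.16), and the adjusted p was 0.0399. The adjusted p was 0.167 without control sample 1 and 0.0799 without control sample 2, and 0.00715 and 0.000527 without chaetocin sample 2 and sample 1. Exons of *AC008914.1* on the opposite strand cover 797 of the 9292 exon bases of *IL6ST*, and whether strand was used in counting is not given in the sources used here. The same limit holds for other genes named below. Opposite-strand exons cover 428 of 2069 exon bases of *IL6*, 876 of 3706 of *ICAM1* and 1424 of 3314 of *BCL2L1*, among others.

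The 250 bases before the start of *IL6ST* are shown because it was the member that passed the test, and neither GGANTTTCC nor the kappaB consensus occurs in this window, which says only that these letters are absent from it.
*IL6ST*, chr5:55994964-55995213, minus strand: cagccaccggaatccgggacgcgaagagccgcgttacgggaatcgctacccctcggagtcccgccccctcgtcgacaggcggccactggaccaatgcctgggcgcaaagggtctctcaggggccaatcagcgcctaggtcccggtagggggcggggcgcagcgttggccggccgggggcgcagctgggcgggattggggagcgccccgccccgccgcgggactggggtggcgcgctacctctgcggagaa

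The chains that pair with gp130 were on the list of other pathway genes. *OSMR*, the oncostatin M receptor subunit, fell from 228 and 183 CPM in control to 108 and 94.6 CPM with chaetocin (log2 fold change -1.02, SE 0.17, adjusted p = 0.0333). Without control sample 1 its adjusted p was 0.107. *LIFR*, the LIF receptor subunit, had 107.6 and 109.8 CPM in control and 67.9 and 77.7 CPM with chaetocin, with a log2 fold change of -0.58 and an adjusted p of 0.0809 from edgeR and 0.0473 from DESeq2. The other chains of these receptors are added outside the rule for named genes, after their values were seen. *IL6R* had 11.6 and 15.9 CPM in control and 13.7 and 20.8 CPM with chaetocin (log2 fold change 0.33, SE 0.25, adjusted p = 0.505), and *IL11RA* had 12.2 and 8.87 CPM in control and 11.5 and 7.21 CPM with chaetocin (log2 fold change -0.17, SE 0.28, adjusted p = 0.778). In both the groups overlapped, and *CNTFR* had 0 reads in every sample. *SOCS3*, a feedback inhibitor that gp130 signalling induces, had 74.6 and 83.5 CPM in control and 58.8 and 49.5 CPM with chaetocin (adjusted p = 0.107).

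None of the ligands of this family on the list passed the test. *IL6* itself had 12.8 and 9.95 CPM in control (312 and 286 reads) and 5.65 and 1.46 CPM with chaetocin (123 and 52 reads). Both chaetocin samples lay below both controls, but they differed from each other by 1.95 on the log2 scale. The log2 fold change of -1.72 had an SE of 0.53 and an adjusted p of 0.134, and it was -2.95 without chaetocin sample 1 and -1.01 without chaetocin sample 2. *LIF* had 79.9 and 83.5 CPM in control and 83.5 and 46.9 CPM with chaetocin, and *IL11* had 11.8 and 8.94 CPM in control and 12.6 and 6.67 CPM with chaetocin, so for both the groups overlapped. *CLCF1*, another cytokine of the family from the list of other genes, had 19.0 and 17.8 CPM in control and 33.7 and 28.0 CPM with chaetocin (log2 fold change 0.74, adjusted p = 0.0669 from edgeR and 0.0240 from DESeq2).

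**Figure D3:**
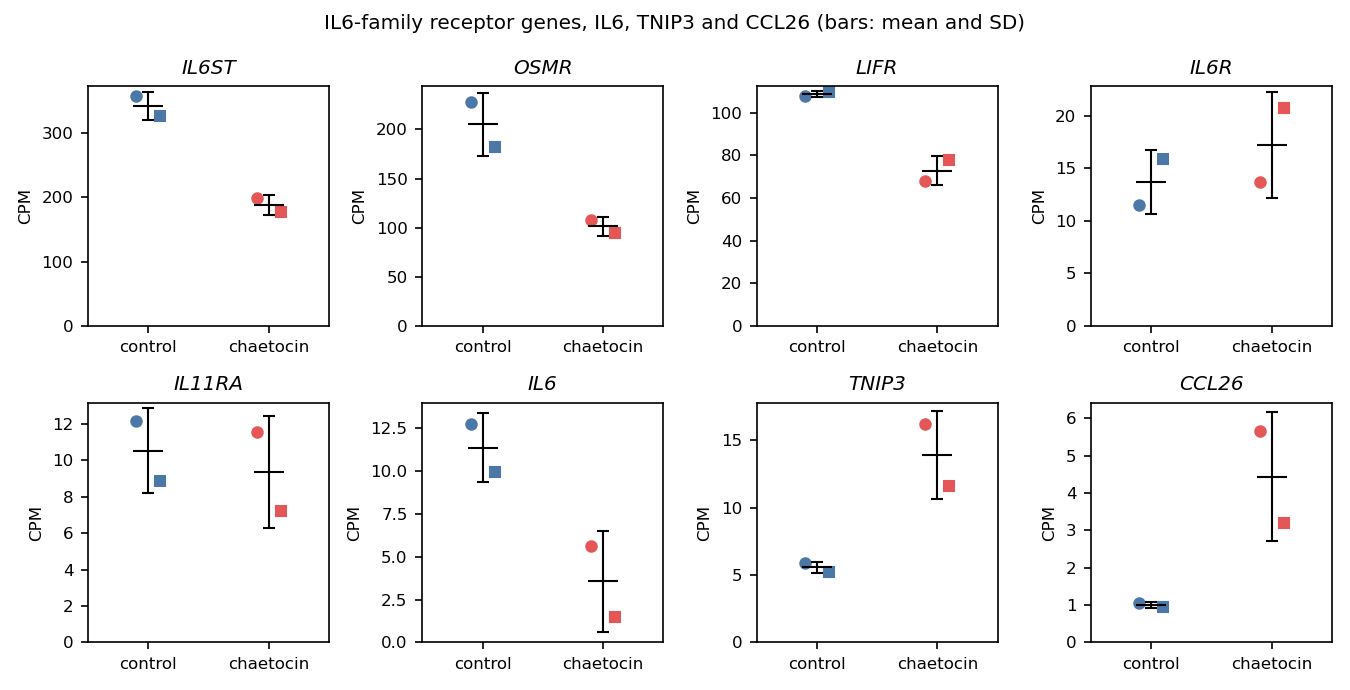
CPM of the gp130 gene IL6ST, of the receptor genes OSMR, LIFR, IL6R and IL11RA, and of IL6, TNIP3 and CCL26, in control (blue) and chaetocin (red) samples, circles sample 1 and squares sample 2, with mean and SD (n = 2) and each axis starting at 0. The chaetocin samples overlap the controls for IL6R and IL11RA and lie on one side of them in the other panels, where the adjusted p missed 0.05 for LIFR (0.0809) and IL6 (0.134).

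Several secreted factors differed more between the chaetocin samples than between treatments. *CSF3* had 166 and 137 CPM in control, 149 CPM in chaetocin sample 1 and 18.4 CPM in chaetocin sample 2. *IL1B*, which encodes interleukin 1 beta, had 146 and 92.5 CPM in control, 119 CPM in chaetocin sample 1 and 17.7 CPM in chaetocin sample 2. *CXCL8*, which encodes the neutrophil chemokine interleukin 8, had 51.6 and 28.2 CPM in control, 109.7 CPM in chaetocin sample 1 and 25.7 CPM in chaetocin sample 2. For *CSF3* and *IL1B* chaetocin sample 1 resembled the controls, and for *CXCL8* it was above them, while chaetocin sample 2 was the lowest sample for all 3 genes.

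The ratio of chaetocin sample 1 to chaetocin sample 2 was 8.1 for *CSF3*, 6.75 for *IL1B* and 4.27 for *CXCL8*. The gap between replicates was examined after the values had been seen and is given as a description. By its size these genes ranked 3, 4 and 9 among the 9477 tested genes with a mean of at least 10 CPM. A gap of at least 1 on the log2 scale was found in 182 of these genes (1.92%) and in 4 of the 22 members at that level, the fourth being *TNIP1*. Between the control samples, 20 of the 9477 genes and 0 of the 22 members had a gap of that size. Over all 32 tested members, 2 had such a gap between the control samples, *CCL20* and *CSF2*. Between the chaetocin samples 10 of the 32 had one, which added *IL6*, *CXCL1*, *CXCL2*, *CCL2*, *CCL20* and *CSF2* to the 4 members above. Over all 16416 tested genes, 1301 (7.93%) had a gap of that size, 645 of them higher in chaetocin sample 1, and of the 182 genes with a mean of at least 10 CPM 155 were higher in that sample. All 10 members were higher in chaetocin sample 1, and 9 of them were also higher in control sample 1 than in control sample 2. Members without such a gap, such as *RELB*, *IL1A* and *CXCL3*, were also higher in control sample 1, and the share over all genes was not counted. Chaetocin sample 1 had the fewest counts of the 4 samples and chaetocin sample 2 the most, and the part of depth in this gap was not tested.

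**Figure D4:**
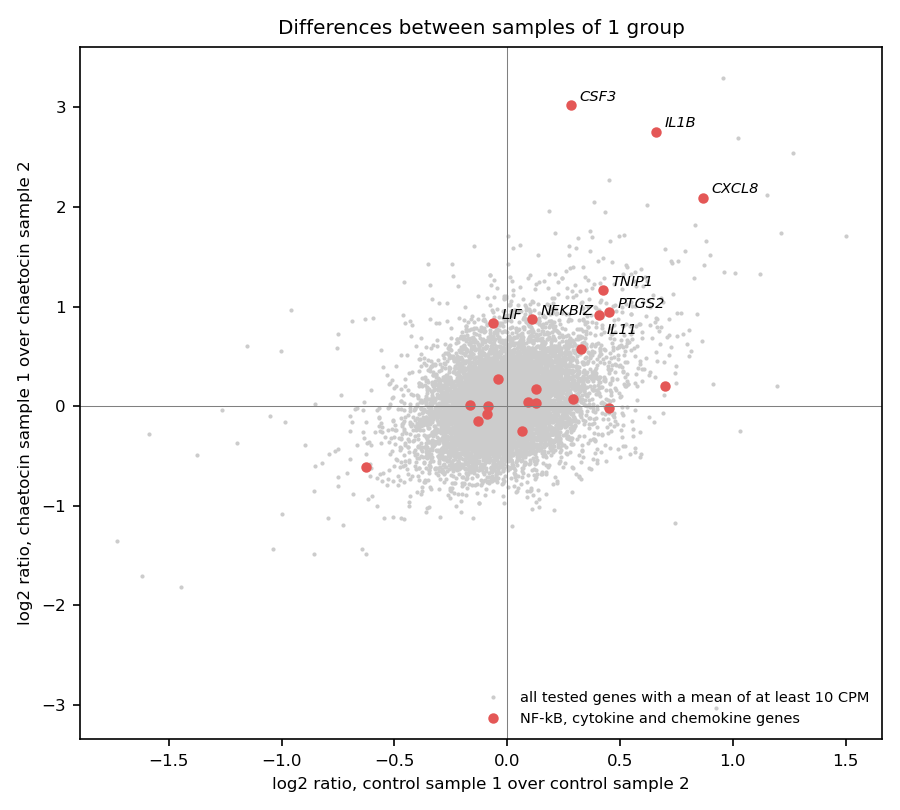
Log2 ratio of sample 1 over sample 2 in the control group (horizontal axis) and in the chaetocin group (vertical axis), for 9477 tested genes with a mean of at least 10 CPM (grey) and for the 22 members among them (red). CSF3, IL1B and CXCL8 lie at 3.02, 2.76 and 2.09 on the vertical axis, among the few genes above 2, and members with a ratio of at least 0.8 are named.

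The log2 fold changes of these 3 genes were therefore imprecise, at -0.86 for *CSF3*, -0.81 for *IL1B* and 0.76 for *CXCL8*, with SEs of 0.93, 0.88 and 0.73 and adjusted p of 0.666, 0.670 and 0.625. Without chaetocin sample 2 they were -0.031, -0.0072 and 1.45, and without chaetocin sample 1 they were -3.04, -2.75 and -0.63. Thus 1 library decided the size of the first 2 values and the direction of the third.

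The products of *CXCL1*, *CXCL2* and *CXCL3* attract neutrophils through a receptor that interleukin 8 also uses. *CXCL2* had 10.3 and 10.2 CPM in control and 13.4 and 5.29 CPM with chaetocin, and *CXCL1* had 1.27 and 0.870 CPM in control and 2.11 and 0.563 CPM with chaetocin. In both, the chaetocin samples lay on either side of the controls. *CXCL3* had 3.89 and 1.95 CPM in control and 1.98 and 1.18 CPM with chaetocin (log2 fold change -0.90, SE 0.44, adjusted p = 0.290), and its log2 fold change was -0.34 without control sample 1 and -0.56 without chaetocin sample 2. These 3 genes share sequence, with 12.5% of the 50-base stretches of *CXCL2* and 4.81% and 6.01% of those of *CXCL1* and *CXCL3* also present in another gene of the trio, so part of their reads could be split between them. *CXCL12*, a chemokine for stem cells and lymphocytes, had 33 and 20 reads in control and 13 and 33 reads with chaetocin.

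*CCL2*, the monocyte chemokine, had 7.58 and 4.14 CPM in control (185 and 119 reads) and 3.49 and 1.15 CPM with chaetocin (76 and 41 reads). Both chaetocin samples were below both controls, with a log2 fold change of -1.38, an SE of 0.51 and an adjusted p of 0.187. The log2 fold change was -2.33 without chaetocin sample 1, -0.75 without chaetocin sample 2 and -0.88 without control sample 1. *CCL20*, which attracts lymphocytes, had 6 and 20 reads in control and 15 and 7 reads with chaetocin. A member of the other chemokines, *CCL26*, the eosinophil chemokine eotaxin-3, rose from 1.07 and 0.940 CPM in control (26 and 27 reads) to 5.65 and 3.21 CPM with chaetocin (123 and 114 reads), a log2 fold change of 2.13 (SE 0.38, adjusted p = 0.0384).

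The colony-stimulating factors all had fold changes below 0. *CSF1*, the macrophage growth factor, had 150.4 and 232 CPM in control and 83.7 and 128 CPM with chaetocin, and both chaetocin samples lay below both controls. Its log2 fold change was -0.85 (SE 0.26), and edgeR gave an adjusted p of 0.120 and DESeq2 one of 0.0222. The log2 fold change was -0.52 without control sample 2 and -0.58 without chaetocin sample 1. *CSF2*, which encodes GM-CSF, had 26 and 2 reads in control and 9 and 0 reads with chaetocin, and the 0 allows a level of up to 0.0844 CPM. Its fitted log2 fold change of -1.64 (SE 1.43, adjusted p = 0.568) was -0.42 without chaetocin sample 2 and -7.05 without chaetocin sample 1, where the remaining chaetocin sample has 0 reads and the value is no bound. *CSF1R*, the receptor of CSF1, had 27.2 and 22.0 CPM in control and 32.7 and 15.1 CPM with chaetocin.

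*IL34*, the other ligand of that receptor, had 5 and 3 reads in control and 29 and 51 reads with chaetocin, or 0.205 and 0.104 CPM and then 1.33 and 1.44 CPM. It passed the filter on low counts through the chaetocin samples alone, so no test is given for it. With chaetocin, *IL34* stood at 0.597 and 0.643 RPKM, against 15.5 and 23.5 RPKM for *CSF1* in the same samples.

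In the interleukin 1 system, *IL1A* had 5.37 and 3.13 CPM in control and 4.69 and 2.84 CPM with chaetocin, with overlapping groups. *IL1R1*, the signalling receptor, had 35.5 and 33.9 CPM in control and 27.3 and 32.3 CPM with chaetocin (log2 fold change -0.22, SE 0.16). *IL1RL1*, the receptor of interleukin 33, had 5 and 5 reads in control and 42 and 51 reads with chaetocin, or 0.205 and 0.174 CPM and then 1.93 and 1.44 CPM. Like *IL34*, it passed the filter through the chaetocin samples alone, and no test is given. *IL1RN*, the secreted antagonist of the interleukin 1 receptor, had 3.73 and 6.89 CPM in control and 3.22 and 2.93 CPM with chaetocin (adjusted p = 0.232).

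*IL1RL1* is known from several kinds of immune cells. Beside the higher counts of *IL34* and *IL1RL1* stand those of the leukocyte markers given above. Of these markers, 6 of 16 lay above both controls in both chaetocin samples. Among the 7 tested it was 5, with *PTPRC* and *ITGAM* among them, beside 26.8% of all tested genes. *AIF1*, *CD3E*, *CD8A*, *MS4A1* and *TYROBP* were at 0 reads throughout. The part of such cells in these differences was not tested.

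Among the classical target genes outside the secreted factors, *ICAM1*, an adhesion molecule for leukocytes, had 28.0 and 26.2 CPM in control and 20.9 and 20.3 CPM with chaetocin (log2 fold change -0.39, SE 0.16, adjusted p = 0.213). *PTGS2*, which encodes the prostaglandin-producing enzyme COX-2, had 28.0 and 20.4 CPM in control and 23.4 and 12.2 CPM with chaetocin, so the groups overlapped. *SOD2*, the mitochondrial superoxide dismutase, had 406 and 455 CPM in control and 480.1 and 476 CPM with chaetocin (log2 fold change 0.15, SE 0.16, adjusted p = 0.652).

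The 11 members with GGANTTTCC in their promoter window did not share a direction. All 11 were tested, 3 had a log2 fold change above 0 and 8 below it, between -1.72 for *IL6* and 0.76 for *CXCL8*, with a median of -0.37. The 14 tested members with a window but without these letters include *TNIP1*, *SOD2*, *IL1R1* and *CCL20*, whose windows lay inside the gene. These 14 had a median of -0.21, from -1.64 to 0.54, with 3 values above 0. Of the former 0 and of the latter 1 passed the test, and the difference between these lists was not tested.

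The other genes of the pathway came from 5 further lists of 107 genes, of which 102 had an identifier and 77 were tested. At an adjusted p under 0.05, *OSMR* was lower with chaetocin and *TNIP3* and *CCL26* were higher, where 0.743% and 1.11% of all tested genes were called. *IL34*, *IL1RL1* and *IL23A* entered the fit only through the chaetocin samples and are left out of these counts and those that follow. DESeq2, which called 2.72% of all genes higher and 2.81% lower, called 3 of the others higher, *TNIP3*, *CCL26* and *CLCF1*, and 5 lower, *OSMR*, *TAB2*, *CYLD*, *TSLP* and *LIFR*. With those 3 genes kept in, the median log2 fold change of the 77 genes was -0.078, with 30 values above 0 and 47 below. The values of *IL34*, *IL1RL1* and *IL23A* are among those above 0.

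Of 29 receptors, adaptors and kinases tested, 0 were called by edgeR, with 1 higher and 4 lower at an unadjusted p under 0.05, beside 10.9% and 9.43% of all genes, and 1 (*TAB2*) lower by DESeq2, beside 2.81%. *TAB2*, an adaptor of the kinase TAK1 that acts above IKK, had 241 and 237 CPM in control and 160.3 and 147 CPM with chaetocin (log2 fold change -0.64, adjusted p = 0.0663). The tumour necrosis factor receptors *TNFRSF1A* and *TNFRSF1B* had log2 fold changes of -0.50 and -0.44, with adjusted p of 0.141 and 0.203. *TRAF1*, an adaptor that NF-kB induces, had 7.87 and 7.90 CPM in control and 11.4 and 11.03 CPM with chaetocin (adjusted p = 0.204).

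Of 10 further inhibitors tested, 1 was higher and 0 were lower at an adjusted p under 0.05, beside 1.11% and 0.743% of all genes, and 1 was higher and 1 lower at an unadjusted p under 0.05, beside 10.9% and 9.43% (edgeR). DESeq2 called 1 higher and 1 lower, beside 2.72% and 2.81%. *TNIP3*, a relative of *TNIP1* that binds A20, rose from 5.86 and 5.26 CPM in control to 16.2 and 11.6 CPM with chaetocin, 2.50 times the control level (log2 fold change 1.32, SE 0.24, adjusted p = 0.0396). Its adjusted p was 0.0654 without control sample 2. *CYLD*, a deubiquitinase that restrains the pathway, had 221 and 252 CPM in control and 153 and 151 CPM with chaetocin (log2 fold change -0.64, adjusted p = 0.0692 from edgeR and 0.0158 from DESeq2).

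Of 11 further target genes tested, 0 passed edgeR's test, 1 was higher and 2 were lower at an unadjusted p under 0.05 (10.9% and 9.43% of all genes), and DESeq2 called 0. *IRF1*, a transcription factor of the interferon response, had 38.0 and 25.7 CPM in control and 51.3 and 52.6 CPM with chaetocin (adjusted p = 0.106). *PTX3*, a secreted pattern-recognition protein, had 77.1 and 56.3 CPM in control and 40.8 and 12.9 CPM with chaetocin, where chaetocin sample 2 was again the lowest (adjusted p = 0.187). *BCL2L1*, which encodes the survival protein BCL-XL, had 201 and 200.5 CPM in control and 164 and 118 CPM with chaetocin (adjusted p = 0.169).

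Of the further cytokines and chemokines, *CCL26* was higher, where 1.11% of all genes were called, and 2 were higher and 1 lower at an unadjusted p under 0.05, beside 10.9% and 9.43%. *TSLP*, an alarm cytokine of barrier tissues, had 20.9 and 14.4 CPM in control and 10.8 and 6.87 CPM with chaetocin (log2 fold change -1.01, adjusted p = 0.0978 from edgeR and 0.0201 from DESeq2). Of the cytokine receptors and JAK-STAT genes, *OSMR* was lower, where 0.743% of all genes were called, and 1 was higher and 5 were lower at an unadjusted p under 0.05, beside 10.9% and 9.43%. *ACKR3*, a scavenging receptor of CXCL12, had 3.20 and 2.85 CPM in control and 5.88 and 5.35 CPM with chaetocin (adjusted p = 0.107). The low counts of *MIF*, at most 8 reads, are uncertain, because exons of *AP000350.4* cover 357 and those of *MIF-AS1* 687 of its 1109 exon bases.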

How the data were processed

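RNA of 4 samples of U87MG cells was sequenced as 50-base single-end reads. The authors deposited raw counts per Ensembl gene, 1 table per sample, without normalization. The submitters' processing notes list cutadapt, TopHat2, SAMtools and the build GRCh37, and the counting tool is not given in the sources used here. GENCODE v29 (GRCh38) supplied symbols and exon lengths and held 52338 of 57905 identifiers. Groups and sample numbers came from the labels.

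From the counts, edgeR 4.0.16 (R 4.3.3) was run with filterByExpr (minimum count 10), TMM factors, a robust quasi-likelihood fit of all 4 samples and no block, with Benjamini-Hochberg adjustment over 16416 genes and a threshold of 0.05. The SE is the absolute log2 fold change divided by the square root of F. DESeq2 1.42.0, other scalings and filters, a replicate block and leaving out each sample were alternatives. The gene lists were chosen with earlier results of these data known. Values are given for all 34 listed genes where an identifier was found, and for other pathway genes that passed the threshold, with at most 4 more per list by unadjusted p. *IL6R*, *IL11RA*, *CNTFR*, *IL23A* and *MIF* were added outside this rule.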

Additional observations from a re-analysis of the deposited data

How the results depend on the processing

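The test rested on 2 samples per group and a coefficient of variation of 16.8% between replicates, and the calls moved with the setting. Against 0 members higher and 1 lower, there were 0 and 4 without a filter on low counts, 0 and 2 with DESeq2, and 2 and 5 at an unadjusted p under 0.05. Of the other pathway genes, leaving out the 3 that entered only through the chaetocin samples, 2 were higher and 1 was lower, and there were 4 and 7 without a filter, 2 and 1 where every sample needed 10 counts, 3 and 5 with DESeq2, and 6 and 13 at an unadjusted p under 0.05. With those 3 genes the higher counts were 4, 6, 2, 5 and 8 in the same order. Over all genes, 182 higher and 122 lower became 787 and 759 without a filter, 114 and 80 where every sample needed 10 counts, 447 and 461 with DESeq2, and 1791 and 1548 at an unadjusted p under 0.05. Upper-quartile factors gave 246 higher and 88 lower and moved the median of all genes to 0.085 and the log2 fold change of *NFKB1* to 0.025.

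The sample numbers are shared by both groups, and the difference between samples 1 and 2 correlated across genes with r = 0.123, which with 2 numbers does not show pairing. With the replicate block, 1 member was higher and 4 were lower, 5 and 10 of the other pathway genes (7 and 10 with those 3), and 1036 and 1053 of all genes.

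Leaving out each sample in turn gave 0 to 1 members higher and 1 to 11 lower, and 1 to 3 other pathway genes higher (2 to 5 with those 3) and 1 to 15 lower, where a lone sample is assumed to vary like the other group. The 11 came without chaetocin sample 1, when 1332 genes were higher and 1673 lower over all genes, against 712 and 940 without chaetocin sample 2. Directions turned for 10 members, whose log2 fold changes ranged from -0.44 to 0.53 for *REL*, -0.94 to 0.22 for *TNIP1*, -0.57 to 0.24 for *IL1A*, -0.63 to 0.27 for *IL11*, -0.80 to 0.024 for *LIF*, -0.63 to 1.45 for *CXCL8*, -0.91 to 0.98 for *CXCL1*, -0.95 to 0.38 for *CXCL2*, -0.81 to 0.14 for *CXCL12* and -1.25 to 0.76 for *CCL20*. What caused these turns was not tested.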
